A study of Mus musculus with 96 samples.

Results

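Coding footprints were compared between neural tubes of Eif3c mutant and wild-type mouse embryos. They were read from the 6 ribosome profiling libraries of the series, 3 per genotype, out of 12 libraries in all; the other 6 hold RNA of the same cell pools. These footprint libraries are spread over 48 of 96 lane samples, of which 44 were used, 20 from mutant and 24 from wild-type libraries. Of 22422 genes with a coding transcript, 13423 had enough footprints to be tested, and all of them are members of the comparison. The mutant embryos carry the genotype C3HeB/Eif3cXs-J/+, so that 1 copy of Eif3c bears the Xs-J allele, and the wild-type embryos are C3HeB. Both were taken at E11.5, with 20 to 23 somites between tail and hind limb. Each preparation held the pooled neural tubes of 1 litter, dissociated with papain, so a value is a mean over embryos and over all cells of the tissue. No treatment is given for either genotype. Whether the 3 pools of a genotype are separate litters is not said in the labels. The p-values therefore rest on the spread from pool to pool, which may be technical.

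Ribosome profiling sequences the short mRNA fragments that a translating ribosome shields from nuclease, so footprints in a coding sequence count ribosomes on it. They vary with the amount of the mRNA and with how densely ribosomes load it. Eif3c encodes a core subunit of eIF3, the largest initiation factor complex, which binds the small ribosomal subunit, helps to recruit the mRNA and keeps the large subunit from joining early. In the neural tube at this stage, dividing progenitors line the ventricle and young neurons gather outside them. By its title, the study concerns how this factor regulates the translation of signalling mRNAs as tissues are patterned.

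Footprint depth was 11.3, 12.1 and 14.8M coding counts in mutant pools 1, 2 and 3, and 59.2, 17.3 and 32.8M in wild-type pools 1, 2 and 3, and the biological coefficient of variation was 9.97%. Values below are CPM (counts scaled by library size and TMM factors), which compare libraries for 1 gene and not genes of different length. A log2 change is mutant over wild type with its standard error (SE), and a gene was called at a Benjamini-Hochberg adjusted p under 0.05 in edgeR's quasi-likelihood test over all 13423 genes. The mutant pools lay further apart than the wild-type pools. On the first principal component, with 46.8% of the variance, mutant pools 1, 2 and 3 lay at 35.9, -5.21 and 12.8, and the wild-type pools at -15.7 to -12.7. On the second, mutant pool 2 lay at -27.8, and the other 5 libraries at 2.27 to 7.60. Neural markers were abundant in every library, with Sox2 at 257 to 300 CPM in mutant and 245 to 273 CPM in wild-type pools. Markers of blood, endothelium, mesenchyme, macrophages and neural crest were present too, with Sox10 of neural crest at 13.1 to 40.1 CPM. Of surface epithelium, Krt14 was at 0 in all 6 libraries and Krt5 at 0 to 0.174 CPM. Epcam and Cdh1 of the same tissue stood at 0.983 to 1.74 and 0.409 to 1.34 CPM. As the tissue was measured in bulk, fewer cells of a type and less RNA per cell cannot be told apart.

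Of the 13423 genes, 34 were called (0.253%), 30 higher (0.223%) and 4 lower (0.0298%) in mutant neural tubes. At an unadjusted p under 0.05 there were 3067 genes (22.8%), 1571 higher and 1496 lower. The groups did not overlap in any of the 34, which were picked by p from these same values. Over all genes they did not overlap in 14.4% (higher in mutant) and 14.8% (lower). Among the 30, 11 are histone genes, and others are the cyclin gene Ccnd2, Trim71, Fignl2 and genes of very short proteins; the 4 that fell are Eif3c, Lxn, Igfbp5 and S100a9. The predicted gene among the 30 is counted and not named. The plot of the called genes by library gives their values.

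**Figure D1:**
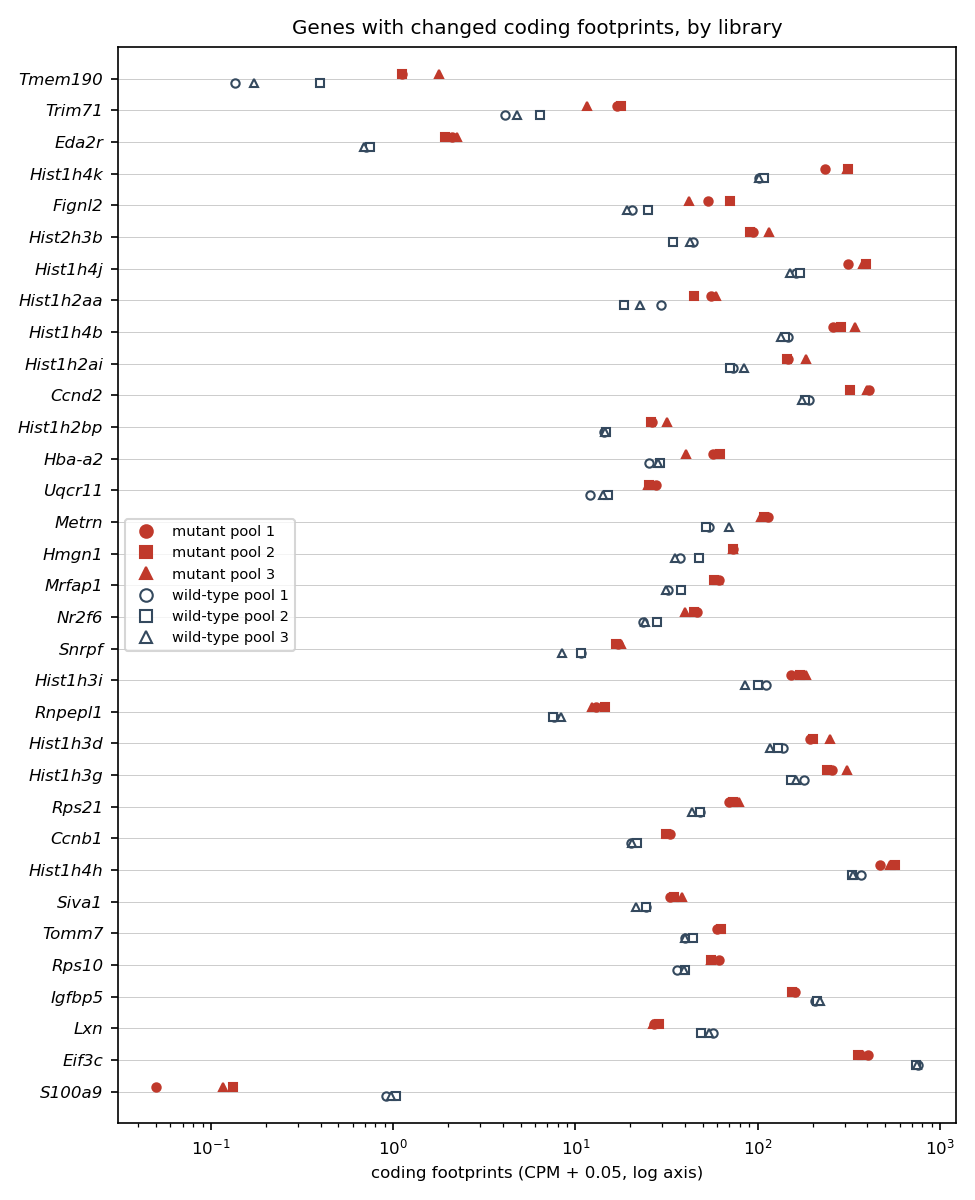
Coding footprints of the 33 named genes with an adjusted p under 0.05, in CPM plus 0.05 on a log axis, ordered by log2 change. Filled red symbols are the mutant pools and open symbols the wild-type pools, with 1 shape per pool number. In every gene, picked by p from these same values, the 3 mutant values lie on one side of the 3 wild-type values. Most genes shown lie to the right in the mutant.

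Eif3c (ENSMUSG00000030738.11, chromosome 7, 126546455 to 126566411 in mm10, minus strand) had 403, 355 and 379 CPM in mutant pools 1, 2 and 3, against 760, 740 and 743 CPM in the wild-type pools. The groups were far apart, with the fitted mutant level at 0.506 of the wild-type level. The log2 change was -0.98 ± 0.07 (SE, n = 3 pools per genotype, edgeR adjusted p = 0.00131). Its RNA fell as well, to 296 ± 5.87 CPM in mutant pools against 496 ± 22.1 CPM in wild-type pools (SD, n = 3 each), a log2 change of -0.75 ± 0.06 (edgeR adjusted p = 6.15e-04). Of the 12 subunits of eIF3 tested, Eif3c fell and 11 did not pass. The log2 differences of those 11 ran from -0.04 for Eif3m to 0.20 for Eif3b, the RNA-binding scaffold subunit, and the groups overlapped in all 11. Eif3b passed in 1 of 19 alternative settings, Eif3c in all 19. None of the 30 other initiation factor genes passed (median log2 difference 0.05), and none of the 10 elongation and termination factor genes (median 0.13). The median over all genes tested was 0.01.

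Replication-dependent histone genes made up 11 of the 30 genes called higher, 11 of 57 such genes tested against 0.223% of all genes. Most of the called copies share much of their sequence with other genes, as given below. They may count the same footprints, so the counts of histone genes here are not counts of independent genes. These genes encode the core and linker histones that package newly copied DNA. Genes of H4 and H3, which form the central tetramer of the nucleosome, were called most often. Of 11 H4 genes, 4 rose and 7 did not pass, with a median log2 difference of 0.60; of 10 H3 genes, 4 rose and 6 did not pass, with a median of 0.69. All 21 of these log2 differences were positive, and the mutant pools lay above the wild-type pools in 10 of the H4 genes and 10 of the H3 genes, against 14.4% of all genes. H2A had 2 of 14 called (median 0.34), linker histone H1 had 0 of 6 (median 0.34) and H2B had 1 of 16 (median 0.09). With offsets for the GC content of coding sequences, described further on, the medians were 0.39 for H4, 0.46 for H3, 0.10 for H2A, 0.23 for H1 and -0.04 for H2B. The plot of histone families shows that spread.

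**Figure D2:**
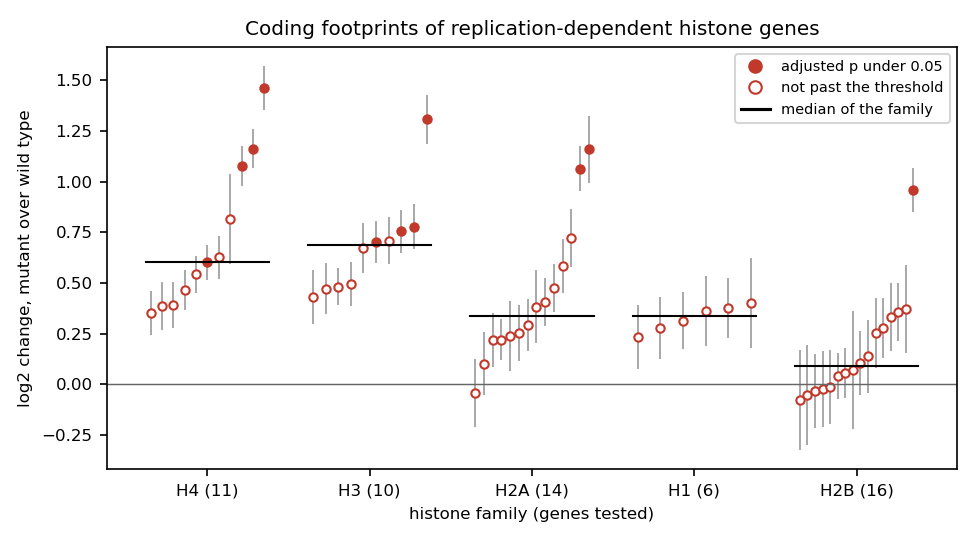
Log2 change in coding footprints, mutant over wild type, of each replication-dependent histone gene tested, by family, with its SE. Filled points passed an adjusted p of 0.05 and the black line is the median of the family. Every H4 and H3 gene lies above 0, while the H2B genes lie around it with a median of 0.09 (-0.04 with GC offsets).

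Hist1h4k had 235, 312 and 310 CPM in mutant pools 1, 2 and 3, against 102, 109 and 101 CPM in wild type. The lowest mutant pool was above every wild-type pool by a wide margin. The log2 change was 1.46 ± 0.11 (edgeR adjusted p = 0.00131). Hist1h4j had 313, 394 and 376 CPM in mutant pools, against 163, 171 and 150 CPM in wild type (1.16 ± 0.10, edgeR adjusted p = 0.00214). In both genes mutant pool 1 was the lowest of the mutant pools. Hist1h4b followed with 260, 286 and 340 CPM in mutant and 146, 141 and 134 CPM in wild type (1.08 ± 0.10, edgeR adjusted p = 0.00268). Hist1h4h, the most abundant of the 4, had 471, 568 and 531 CPM in mutant and 369, 330 and 334 CPM in wild type (0.60 ± 0.09, edgeR adjusted p = 0.0259).

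The coding sequences of these 4 genes, all on chromosome 13, are nearly alike, which bears on how far a footprint can be given to 1 copy. Pairs of them shared 95.5% to 98.4% of their 312 bases. Their coding bases 46 to 75, the first 30 bases counted here, are shown 5′ to 3′ from the annotation's transcripts, with capitals at the 4 bases that differ among the copies.
Hist1h4k: gcCaagcgccaCcgcaaagtgctgcgCgaT
Hist1h4j: gcTaagcgccaCcgcaaagtgctgcgCgaC
Hist1h4b: gcTaagcgccaTcgcaaagtgctgcgCgaC
Hist1h4h: gcCaagcgccaCcgcaaagtgctgcgTgaC
Of all 30-base windows of each copy, about the length of a footprint, 87.9% to 97.3% also occurred in another gene. How reads that fit several places were counted is not given in the sources used here, so the level of a single copy is uncertain.

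Among H3 genes, Hist2h3b had 94.3, 90.9 and 115 CPM in mutant pools and 44.3, 34.1 and 42.2 CPM in wild type (1.31 ± 0.12 in log2, edgeR adjusted p = 0.00268). Hist1h3i (0.78 ± 0.11), Hist1h3d (0.76 ± 0.11) and Hist1h3g (0.70 ± 0.10) rose too, with edgeR adjusted p of 0.0259, 0.0259 and 0.0327. The H2A genes that rose were Hist1h2aa (1.16 ± 0.17, edgeR adjusted p = 0.0259) and Hist1h2ai (1.06 ± 0.11, edgeR adjusted p = 0.00566), and the H2B gene was Hist1h2bp (0.96 ± 0.11, edgeR adjusted p = 0.0102). Hist1h2aa shared 14.6% of its 30-base windows with other genes, while the other 10 histone genes called shared 87.9% or more. Counted over the whole coding sequence, first and last codons included, Hist2h3b, Hist1h3d, Hist1h3g, Hist1h4h and Hist1h2bp no longer passed, with log2 differences of 0.26, 0.30, 0.33, 0.30 and 0.52. Hist1h4h, Hist1h3i, Hist1h3d, Hist1h3g and Hist1h2aa also lost the call with an offset for the GC content of coding sequences, a setting chosen after the data were seen, which gave the histone list a median of 0.22 in place of 0.38. Their log2 differences were then 0.39, 0.56, 0.54, 0.47 and 1.02.

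Histone mRNAs of this class end in a stem-loop and not in a poly(A) tail, and the RNA libraries were made from poly(A) RNA. The 7 called histone genes tested in RNA stood at 1.16 to 2.01 CPM in mutant and 1.04 to 2.04 CPM in wild type there, on average. Their footprints stood at 169 to 523 CPM in mutant and 98.7 to 344 CPM in wild type, so the RNA libraries held few reads of them. Genes of DNA replication, given beside them since both act in S phase, had none called among 39. Of the 39, 38 had a positive log2 difference (median 0.20, RNA median 0.25), against 52.4% of all genes. In 12 the mutant pools lay above all wild-type pools (14.4% of all genes). The list's median from the wild-type mean was 0.26, 0.04 and 0.30 in mutant pools 1, 2 and 3, so that pool 2 differed least. The licensing factor Cdt1 had a log2 difference of 0.64 ± 0.12 (edgeR adjusted p = 0.0647), thymidine kinase Tk1 of 0.57 ± 0.11 (edgeR adjusted p = 0.0686) and the polymerase subunit gene Pold1 of 0.49 ± 0.10 (edgeR adjusted p = 0.0707).

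Ccnd2, the D-type cyclin that carries progenitors through G1, had 405, 320 and 400 CPM in mutant pools, against 191, 181 and 174 CPM in wild type. All mutant pools were well above the wild-type pools, which lay close together. Its log2 change was 1.04 ± 0.10 (edgeR adjusted p = 0.00268), and it passed in all 19 alternatives. Its RNA rose too, to 190 ± 40.0 CPM in mutant against 100 ± 5.82 CPM in wild-type pools (SD, n = 3 each), a log2 change of 0.93 ± 0.13 (edgeR adjusted p = 0.0365). Of 20 genes of G1 cyclins, their kinases and inhibitors, Ccnd2 rose and 19 did not pass (median 0.12). Ccnd3 had a log2 difference of 0.55 ± 0.11 and the inhibitor Cdkn1a of 0.77 ± 0.16 (edgeR adjusted p = 0.0705 and 0.0767). Ccnb1, the mitotic cyclin, had 32.8, 31.2 and 32.1 CPM in mutant pools and 20.1, 21.6 and 20.3 CPM in wild type (0.63 ± 0.08, edgeR adjusted p = 0.0200). It was the 1 gene called among 41 of mitosis (median 0.09, against 0.29 in RNA), and 91.4% of its 30-base windows occurred in other genes.

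Trim71 and Fignl2 rose in footprints and were not called in RNA. Trim71, an RNA-binding ubiquitin ligase of early progenitors and a known target of the let-7 microRNAs, had 16.8, 17.7 and 11.54 CPM in mutant pools, against 4.07, 6.33 and 4.72 CPM in wild type. The groups were clearly apart, and mutant pool 3 was the lowest of its genotype. The log2 change was 1.64 ± 0.21 (edgeR adjusted p = 0.0162), beside an RNA difference of 0.33 ± 0.17 (edgeR adjusted p = 0.352). Fignl2, a fidgetin-like AAA protein, had 53.1, 70.8 and 42.1 CPM in mutant pools, against 20.3, 25.0 and 19.1 CPM in wild type (1.37 ± 0.18, edgeR adjusted p = 0.0192). Its RNA difference was 0.26 ± 0.13 (edgeR adjusted p = 0.344), and with GC offsets its footprint change was 1.08 (edgeR adjusted p = 0.0744).

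Both belong to a list of 30 genes of Lin28, Trim71 and let-7 targets, in which 3 rose (with Ccnd2) and 27 did not pass (median 0.23, 25 of 30 positive). The let-7 microRNAs mark the onset of differentiation and silence mRNAs through their seed, and Lin28 proteins block their maturation. Lin28a had a log2 difference of 0.93, Lin28b of 0.80, Sall4 of 1.22 and Hmga1 of 0.81 (edgeR adjusted p = 0.124, 0.110, 0.0761 and 0.0888), 4 genes chosen after their values were seen. Nme4 had one of 0.61 ± 0.12 (edgeR adjusted p = 0.0729). The list was drawn up with earlier results of these data known, so its count is no independent evidence of a direction.

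Mature let-7 sequences from RefSeq (GRCm38.p6) are shown with the seed, bases 2 to 8, in capitals, since it is the part that pairs with a target.
mmu-let-7d-5p: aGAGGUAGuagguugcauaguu
mmu-let-7g-5p: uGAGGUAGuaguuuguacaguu
mmu-let-7i-5p: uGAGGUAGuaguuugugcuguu
The 3 share 1 seed, and its match on the mRNA's own strand is CTACCTC. The 3′ UTR of Trim71 held 4 matches and that of Fignl2 held 3. The first 2 in Trim71, at UTR bases 166 and 262, and the first in Fignl2, at base 1969, are shown with the match in capitals.
Trim71 site 1: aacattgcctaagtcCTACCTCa
Trim71 site 2: agtgataatttctatCTACCTCa
Fignl2 site 1: ccccggctgcagcacCTACCTCa
Of the 3′ UTRs of 13229 genes tested, 1234 held the match (9.33%), and of 25 genes called higher that have a 3′ UTR, 3 did (12%): Trim71, Fignl2 and Metrn. Ccnd2 held none. The median log2 difference was 0.01 both for genes with the match and for those without it.

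Some of the other genes that rose encode very short proteins. Of the 30, 18 (60.0%) had at most 150 codons, against 856 of all genes tested (6.38%). Of the 18, 11 are the histone genes given above, which may count the same footprints, and 7 are no histone. Those 856 genes had a median log2 difference of 0.03, close to that of all genes. Uqcr11, a small subunit of respiratory complex III, had 27.6, 25.3 and 24.9 CPM in mutant pools, against 12, 14.98 and 14.04 CPM in wild type. The groups were tight and apart, with a log2 change of 0.93 ± 0.11 (edgeR adjusted p = 0.0157), while its RNA differed by -0.40 ± 0.19 (edgeR adjusted p = 0.305). It was the 1 gene called among 72 nuclear genes of the respiratory chain and ATP synthase (median 0.05). Tomm7, a small part of the mitochondrial import pore, had 59.7, 63.2 and 61.8 CPM in mutant and 39.8, 44.1 and 39.6 CPM in wild type (0.58 ± 0.08, edgeR adjusted p = 0.0197).

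Hmgn1, a nucleosome-binding protein, had 73.0, 73.4 and 73.0 CPM in mutant and 37.2, 47.7 and 35.2 CPM in wild type (0.88 ± 0.11, edgeR adjusted p = 0.0162). The mutant pools were almost equal and wild-type pool 2 was the highest of its group. Mrfap1 rose by 0.83 ± 0.09 on the log2 scale (edgeR adjusted p = 0.00758) and Snrpf, a core protein of splicing particles, by 0.79 ± 0.13 (edgeR adjusted p = 0.0494). Hmgn1, Mrfap1 and Snrpf shared 81.2%, 70.2% and 100% of their 30-base windows with other genes, and Snrpf lost the call over the whole coding sequence.

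Cytosolic ribosomal protein genes had 2 called among 49 tested, Rps21 and Rps10, and 47 that did not pass. Rps21 had 69.5, 73.0 and 79.4 CPM in mutant pools, against 48.1, 48.1 and 43.7 CPM in wild type (0.67 ± 0.08, edgeR adjusted p = 0.0157). Rps10 had 60.9, 55.4 and 55.7 CPM in mutant pools, against 36.1, 40.0 and 39.2 CPM in wild type (0.58 ± 0.08, edgeR adjusted p = 0.0259). No mutant value of either gene came near the wild-type values. The list had a median log2 difference of 0.28 in footprints and 0.21 in RNA, with 42 of 49 positive. In 18 of 49 the mutant pools lay above all wild-type pools (14.4% of all genes) and in 0 below. Another 36 ribosomal protein genes had too few counts to be tested. Of the 30-base windows of Rps10 and Rps21, 97.3% and 76.7% also occurred in other genes. Genes of ribosome biogenesis had none called among 40 (median 0.16), led by the nucleolar protein gene Nop56 with 0.38 ± 0.07 (edgeR adjusted p = 0.0524; called with GC offsets, 0.43, edgeR adjusted p = 0.0439). The 76 mitochondrial ribosomal protein genes had none called and a median of 0.10.

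The other genes that rose have varied roles. Eda2r, a receptor of the tumour necrosis factor family and a p53 target, had 2.05, 1.88 and 2.20 CPM in mutant pools, against 0.662, 0.697 and 0.644 CPM in wild type. The values were low but tight, with a log2 change of 1.62 ± 0.23 (edgeR adjusted p = 0.0259), called in 8 of 17 alternatives. Its RNA change was 3.04 ± 0.50 (edgeR adjusted p = 0.0365), on very few wild-type reads. That RNA stood at 2.63 ± 0.785 CPM in mutant against 0.284 ± 0.249 CPM in wild-type pools (SD, n = 3 each). Eda2r was the 1 gene called among 30 p53 targets (median 0.23). Metrn, a secreted factor for glial and axon growth, had 114, 108 and 105 CPM in mutant, against 54.1, 51.7 and 69.5 CPM in wild type (0.89 ± 0.11, edgeR adjusted p = 0.0157). Nr2f6, an orphan nuclear receptor, rose by 0.79 ± 0.10 (edgeR adjusted p = 0.0162), Siva1, a pro-apoptotic protein, by 0.60 ± 0.10 (edgeR adjusted p = 0.0467), and Rnpepl1, an aminopeptidase-like protein, by 0.76 ± 0.12 (edgeR adjusted p = 0.0464). Tmem190 had 51 counts over the mutant pools and 15 over the wild-type pools, a ratio after scaling of 9.71 (95% exact interval 5.38 to 18.6, counting error only; edgeR adjusted p = 0.0464).

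Hba-a2, an adult alpha-globin, had 56.5, 62.2 and 40.2 CPM in mutant, against 25.3, 29.2 and 28.4 CPM in wild type (0.94 ± 0.15, edgeR adjusted p = 0.0467). It is the 1 of 23 erythroid genes called, and 91.2% of its windows are shared with other genes. The summed level of those 23 was 14761, 9372 and 8539 CPM in mutant pools 1, 2 and 3, and 9160 to 10401 CPM in wild type, so that pool 1 alone stood above; 19 of the 23 had a positive log2 difference, as had 20 of 20 endothelial and 24 of 26 mesenchyme markers. Endothelial markers summed to 1236, 680 and 758 CPM in mutant pools 1, 2 and 3, against 720 to 853 CPM in wild type. Mesenchyme markers summed to 2881, 2010 and 1976 CPM in the mutant pools, against 1803 to 2001 CPM in wild type. The median log2 difference from the wild-type mean was 0.71 for erythroid, 0.74 for endothelial and 0.80 for mesenchyme markers in mutant pool 1, against -0.14 to 0.14 for these lists in the other 2 mutant pools. The part of these cells in the results was not tested; without mutant pool 1, 25 of the 34 genes were still called, among 35.

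Besides Eif3c, 3 genes fell. Lxn, an inhibitor of carboxypeptidases, had 27.0, 28.8 and 26.5 CPM in mutant pools, against 56.5, 48.7 and 54.3 CPM in wild type. Both groups were tight and lay far apart. The log2 change was -0.96 ± 0.09 (edgeR adjusted p = 0.00268), with an RNA change of -0.76 ± 0.13 (edgeR adjusted p = 0.0365). Igfbp5, a binding protein that tunes insulin-like growth factor signalling, had 160, 154 and 156 CPM in mutant and 206, 210 and 219 CPM in wild type (-0.44 ± 0.06, edgeR adjusted p = 0.0259; RNA -0.57 ± 0.09, edgeR adjusted p = 0.0365), the 1 gene called among 14 of that pathway. S100a9, a protein of granulocytes, had 2 counts over the mutant pools and 98 over the wild-type pools, a ratio of 0.0583 (95% exact interval 0.00696 to 0.216, counting error only; edgeR adjusted p = 0.0259). The next by p, Serf1, had 30.1, 38.1 and 42.9 CPM in mutant and 59.9, 59.9 and 62.7 CPM in wild type (-0.71 ± 0.12, edgeR adjusted p = 0.0501). Tmsb15b2 (-0.92), Tmsb15l (-0.83), Abat (-0.55), Cd24a (-0.48) and Rbm25 (-0.36) came after it, with edgeR adjusted p of 0.0511 to 0.0521. Tmsb15b2 and Tmsb15l overlap on chromosome X and share 100% of their 30-base windows, so they may count the same footprints. With GC offsets Serf1 was called (-0.57, edgeR adjusted p = 0.0410).

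Footprints can follow the mRNA or depart from it, so each called gene was set beside its RNA. Of the 34, 28 were tested in RNA, where 52 of 13406 genes were called (0.388%), and 5 were called in both: Eif3c, Lxn, Igfbp5, Ccnd2 and Eda2r. Of the 25 genes higher in footprints with RNA tested, 19 had a positive RNA difference. The median was 0.83 in footprints and 0.21 in RNA, which is a description, since the genes were picked for their footprint change. The test of the difference, an interaction of genotype and assay over 12 libraries, called 0 of 13877 genes in edgeR (0%; 1367 at an unadjusted p under 0.05, 9.85%, lowest edgeR adjusted p = 0.115), and 0 with RLE factors. With the pool as a block, since RNA and footprints of a pool share their cells, it called 113 genes (0.814%), 71 higher (0.512%) and 42 lower (0.303%).

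Among those 113 were 10 of the 34, all with footprints higher than RNA. The difference was 1.36 ± 0.19 for Uqcr11 (edgeR adjusted p = 0.00700), 0.84 ± 0.12 for Rnpepl1 (0.00857 by the same test) and 0.87 ± 0.13 for Mrfap1 (0.00889). It was 1.29 ± 0.21 for Trim71 (0.0146) and 1.12 ± 0.20 for Fignl2 (0.0212). The other 5 were Hmgn1, Tmem190, Snrpf, Hist1h4j and Tomm7. The block's count ran from 1 without wild-type pool 1 to 1005 without mutant pool 3, and Uqcr11 and Rnpepl1 passed in 5 of the 6 fits that left out a pool, Mrfap1, Hmgn1 and Tmem190 in 4, Fignl2 in 3, Trim71 and Snrpf in 2, and Hist1h4j and Tomm7 in 1. The RNA libraries held few reads of Hist1h4j, as given above. The plot of footprint against RNA change shows these genes above the diagonal, apart from Tmem190, which was not tested in the fit of RNA alone.

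**Figure D3:**
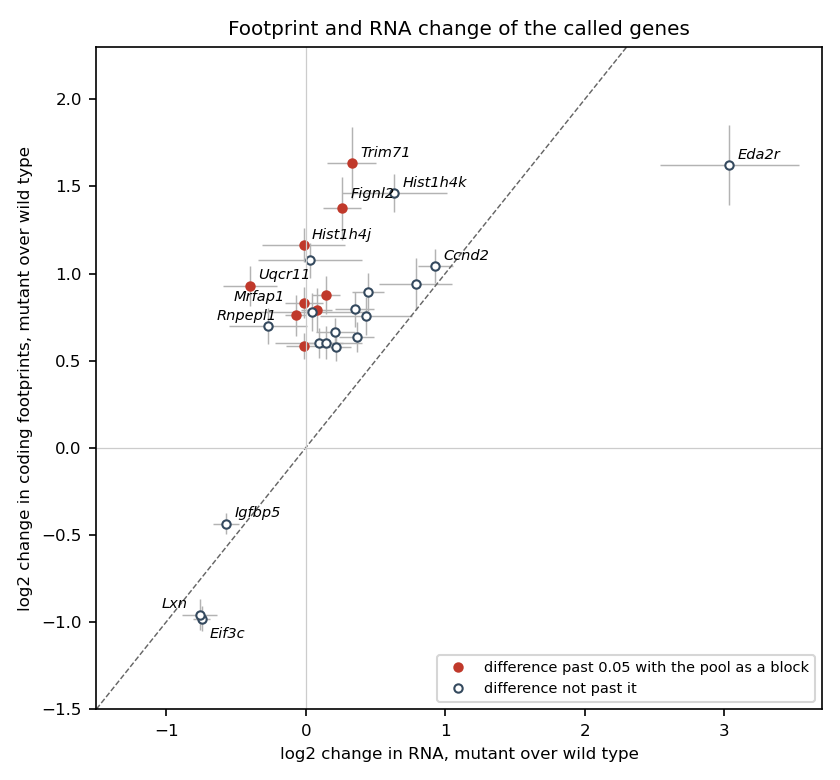
Log2 change in coding footprints (vertical) against log2 change in RNA (horizontal), mutant over wild type, of the called genes tested in both, with SE; the dashed line marks equal change. Red points are genes whose difference between the 2 passed an adjusted p of 0.05 with the pool as a block. Most genes that rose lie above the line, Ccnd2 lies near it and Eda2r lies to its right.

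The proteins encoded by mitochondrial DNA, made by ribosomes inside the organelle, had lower footprint values in mutant pools on average. None of the 7 tested passed the adjusted threshold, all 7 had an unadjusted p under 0.05 with a negative log2 difference (11.1% of all genes), and in 6 the groups did not overlap (14.8% of all genes for lower values). mt-Co1, of complex IV, had 645, 522 and 1001 CPM in mutant pools, against 1505, 1302 and 1627 CPM in wild type (-1.03 ± 0.20, edgeR adjusted p = 0.0686). mt-Nd1, of complex I, had 246, 217 and 434 CPM in mutant, against 664, 527 and 658 CPM in wild type (-1.04 ± 0.23, edgeR adjusted p = 0.0794). Mutant pool 3 was the highest of the mutant pools in both. The list's median was -1.04 in footprints and 0.07 in RNA. Per the labels' protocols, lysates were spun to remove mitochondria before digestion; the part of that step in these values was not tested.

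Pan-neuronal genes, which build axons, synapses and the neuronal cytoskeleton, had none called among 49. Of these, 47 had a negative log2 difference (median -0.32, RNA median -0.30), and in 31 the mutant pools lay below all wild-type pools, against 14.8% of all genes. Mapt, the axonal microtubule protein, had 144, 175 and 164 CPM in mutant, against 237, 215 and 269 CPM in wild type (-0.58 ± 0.10, edgeR adjusted p = 0.0537). Stmn2, a tubulin regulator of growth cones, had 508, 596 and 581 CPM in mutant, against 741, 722 and 754 CPM in wild type (-0.40 ± 0.08, edgeR adjusted p = 0.0686). The list's median from the wild-type mean was -0.44, -0.13 and -0.37 in mutant pools 1, 2 and 3, so that pool 2 differed least. The defining neuronal marker Tubb3 differed by -0.03. Inhibitory interneuron factors had none called among 24 (median -0.28), and 17 had a negative log2 difference. In 11 the mutant pools lay below all wild-type pools, against 14.8% of all genes. In 1 they lay above, against 14.4% of all genes. Among those of smallest p, Gbx1 had a positive log2 difference, 0.71 ± 0.15 (edgeR adjusted p = 0.0757). Lhx5 differed by -0.35 ± 0.08 (edgeR adjusted p = 0.0854) and Dmrt3 by -0.60 ± 0.14 (edgeR adjusted p = 0.0862). Lbx1 differed by -0.50 ± 0.13 (edgeR adjusted p = 0.0954). With GC offsets 1 of the 24 was called lower. Excitatory interneuron and motor neuron factors had none among 25 (median -0.04).

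Patterning and signalling genes had no call either. Dorsal progenitor and roof plate factors had none of 28 (median 0.22, RNA 0.22), with mutant pools above wild type in 11 (14.4% of all genes). Wnt3a, a roof plate ligand, had 17.7, 13.7 and 12.9 CPM in mutant, against 7.79, 8.19 and 8.37 CPM in wild type (0.86 ± 0.14, edgeR adjusted p = 0.0501). Zic5 had 26.4, 25.6 and 22 CPM in mutant, against 16.4, 14.8 and 15.8 CPM in wild type (0.64 ± 0.11, edgeR adjusted p = 0.0511). Mutant and wild-type pools of both genes were apart. Gdf7, a roof plate BMP ligand, had 17.2, 7.29 and 6.47 CPM in mutant, against 3.02, 2.96 and 3.46 CPM in wild type, with pool 1 well above the others (1.69 ± 0.34, edgeR adjusted p = 0.0686). Hedgehog genes had none of 38 (median 0.13). The coreceptor Gas1 had a log2 difference of 0.75 ± 0.14 (edgeR adjusted p = 0.0626), Prkacb, a catalytic subunit of protein kinase A, of -0.38 ± 0.09 (edgeR adjusted p = 0.0829), the signal transducer Smo of 0.49 ± 0.12 (edgeR adjusted p = 0.0862) and the effector Gli2 of 0.35 ± 0.09 (edgeR adjusted p = 0.0877).

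For Ptch1, the receptor, the difference was 0.23 ± 0.13, for its target Gli1 0.39 ± 0.13, for Gli3 0.14 ± 0.07 and for the ligand Shh 0.50 ± 0.24, with edgeR adjusted p from 0.148 for Gli1 to 0.307 for Ptch1. Single pools moved some of these values: Shh stood at 0.18 without mutant pool 1 and at 0.73 without mutant pool 2 (edgeR adjusted p = 0.0203, in the fit that called 2335 genes), and Ptch1 at 0.05 without mutant pool 2. Gli1 ran from 0.27 with run 2 alone to 0.76 with all lane samples summed. The latter setting adds the 4 lane samples of mutant pool 1 left out elsewhere, with counts on at most 3 of 20 chromosomes. Its value is therefore no measure of spread between pools. Hox genes, which assign identity along the head-to-tail axis, had none of 35 called and went both ways, with 8 above and 10 below without overlap, against 14.4% and 14.8% of all genes (median -0.18, and -0.31 with GC offsets). Hoxd4 differed by 0.48 ± 0.08 (edgeR adjusted p = 0.0511) and Hoxc9 by -0.35 ± 0.06 (edgeR adjusted p = 0.0626). With GC offsets Hoxc9 was called at -0.53 (edgeR adjusted p = 0.0281), and Hoxd4 stood at 0.31. Integrated stress response targets, which respond to eIF2 phosphorylation, had none of 38 called (median 0.03), with 22 positive and 16 negative log2 differences. In 10 the mutant pools lay above all wild-type pools and in 3 below, against 14.4% and 14.8% of all genes. Among those of smallest p were Phgdh (0.44 ± 0.08, edgeR adjusted p = 0.0521), Slc7a5 (0.38 ± 0.07, edgeR adjusted p = 0.0659) and Psat1 (0.31 ± 0.07, edgeR adjusted p = 0.0794). Of the windows of Phgdh, 86.8% are shared with other genes. Atf4 differed by 0.16 ± 0.12 (edgeR adjusted p = 0.448). Ventral progenitor factors had none of 17 called (median 0.27). Their median from the wild-type mean was 0.33, -0.17 and 0.42 in mutant pools 1, 2 and 3, so the pools differed in sign. Neural progenitor genes had none of 29 called (0.08, but -0.03 with GC offsets) and immediate early genes none of 26 (0.23). The medians of the Notch, Wnt, BMP and FGF pathways were 0.15, 0.15, 0.07 and 0.02, with none of 23, 38, 35 and 23 called. With GC offsets these medians became 0.04, 0.08, 0.001 and -0.001, and those of the dorsal, ventral, Hedgehog and immediate early lists 0.09, 0.12, 0.07 and 0.07. Gas1 and Zic5 stood at 0.46 and 0.41 with them. The plot of gene lists gives all of them.

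**Figure D4:**
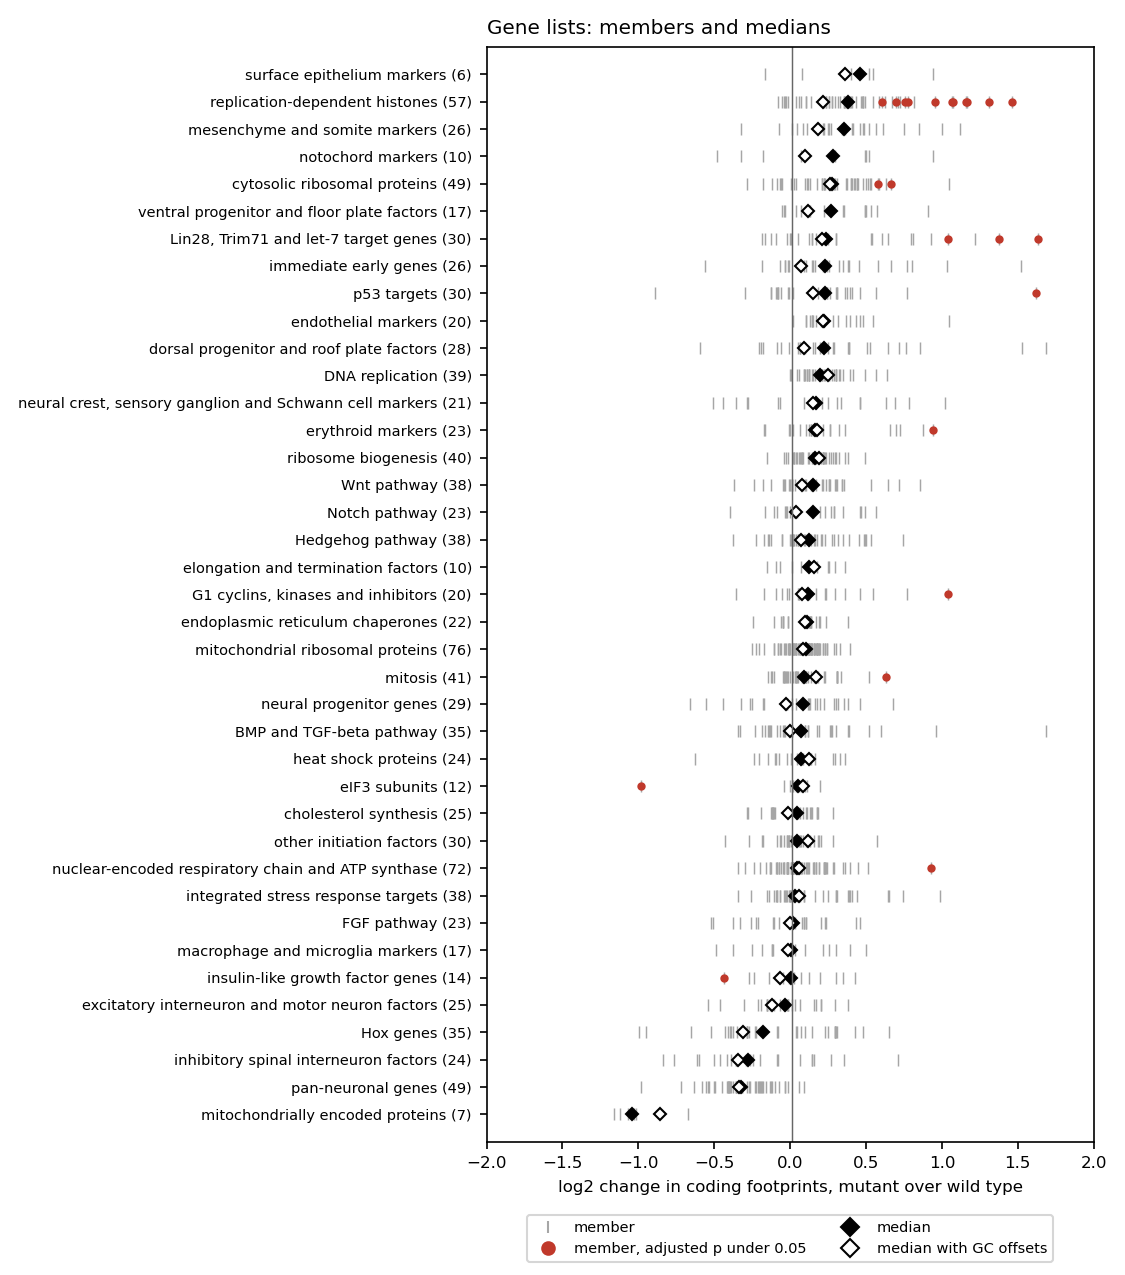
Log2 change in coding footprints, mutant over wild type, of the members tested in each gene list (grey marks), of members with an adjusted p under 0.05 (red) and the median (filled diamond; open with GC offsets), with the number tested in brackets. The vertical line is the median of all genes tested, 0.01. Histone and ribosomal protein lists lie to the right, and mitochondrially encoded and pan-neuronal lists to the left.

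The footprint changes went with the GC content of the coding sequence. Over the 13423 genes, which are no independent replicates, the log2 change correlated with coding GC at r = 0.39. With genes ordered by GC into 10 equal bins, the median ran from -0.14 in the lowest bin to 0.22 in the highest. Of the 30 genes that rose, 18 lay in that top bin, at 61.0% to 83.1% GC, and their median GC was 62.6% against 53.2% over all genes. The correlation of a library's deviations with GC was 0.36, 0.11 and 0.07 in mutant pools 1, 2 and 3, and -0.38, -0.22 and -0.25 in wild-type pools 1, 2 and 3. The GC offsets were a smooth curve, fitted in each library to its deviations from the gene means against coding GC. Being drawn from these same values, they also take out any genotype difference that goes with GC. With GC offsets, 28 genes were called, 22 of them among the 34. Those lost, besides the histone genes and Fignl2 given above, were Nr2f6, Rnpepl1, Tmem190, Hba-a2, Siva1 and the predicted gene. The log2 differences of the 5 named ones were 0.57, 0.60, 3.14, 0.84 and 0.51 with offsets, against 0.79, 0.76, 3.16, 0.94 and 0.60 without. The offsets also gave medians of 0.19 for mesenchyme markers, 0.17 for mitosis, 0.08 for G1 cyclins, 0.12 for other initiation factors, 0.06 for stress response targets and -0.12 for excitatory and motor neuron factors. What the GC trend adds to each result was not tested beyond this.

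**Figure D5:**
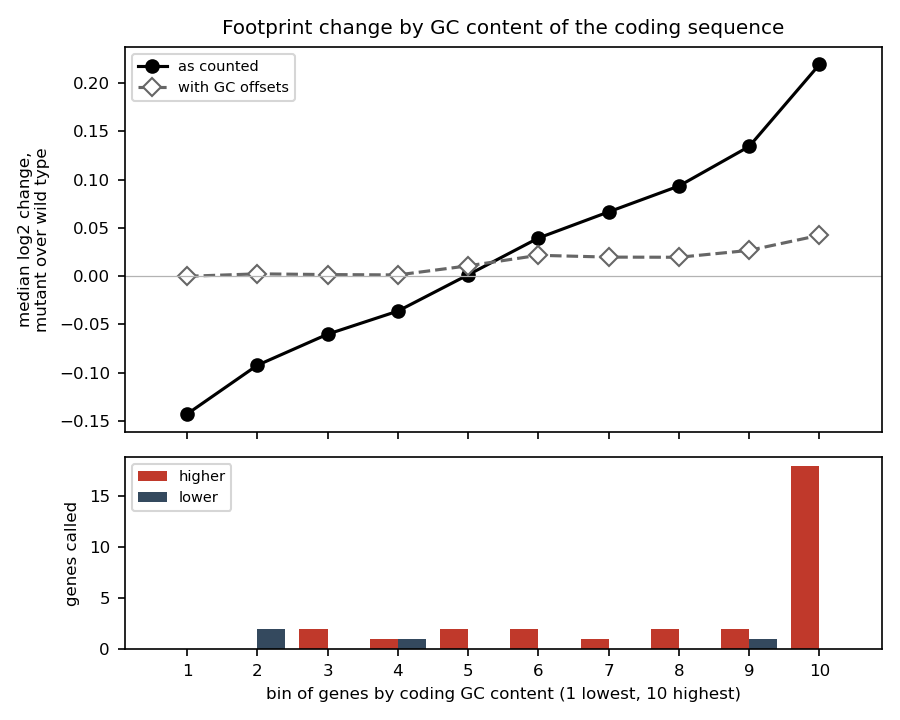
Median log2 change in coding footprints, mutant over wild type, in 10 bins of the 13423 genes by coding GC content (top; filled as counted, open with GC offsets), and genes called higher and lower in each bin (bottom). The median rises from -0.14 to 0.22 across bins, and 18 of the 30 higher genes are in the last bin. With offsets the median is nearly flat by design, as the offsets were fitted to the trend with GC in these libraries.

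How far the calls rest on single libraries was checked by leaving out each in turn. Of the 34 genes, 8 were still called without wild-type pool 1, 11 without wild-type pool 2, 9 without wild-type pool 3, 25 without mutant pool 1 and 14 without mutant pool 3. Without mutant pool 2 all 34 were called, among 2335 genes (1042 higher and 1293 lower). Eif3c, Lxn, Ccnd2, Hist1h4j and Hist1h4k passed under all 19 alternatives run.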

How the data were processed

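Per the labels, neural tube cells of a litter were split into a tube for poly(A) RNA and one for footprints. The authors deposited a read count per transcript and lane; per the submitters' processing notes, cutadapt, STAR and bedtools were used with mm10. Not given in the sources used here were the tool versions, the strand setting and the handling of reads that map to several places. In coding counts, 45 bases at the start and 15 at the end of the coding sequence are trimmed off. Lanes and runs were summed per library as technical repeats. In 4 lane samples of the first run of mutant footprint pool 1, at most 3 of 20 chromosomes had counts; these were left out. GENCODE vM21 held 121271 of the 122941 transcripts under their versioned name and 1522 under the bare name, and 148 had no gene; 0.303% of counts lay on no gene. The transcript with the highest total stood for each gene, since 65.7% of genes have several coding transcripts.

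Tests used R 4.3.3 with edgeR 4.0.16 (quasi-likelihood test, TMM, filterByExpr with minimum count 10 and minimum total 15, Benjamini-Hochberg adjustment over all genes, threshold 0.05), with limma 3.58.1 and DESeq2 1.42.0 as alternatives; other steps ran in Python 3.11.15 with pandas 2.3.3, NumPy 2.4.6, SciPy 1.17.1 and Matplotlib 3.10.9. Footprints were fitted over 6 libraries with genotype only, RNA over 6, and their difference over 12. RNA and footprint libraries with the same number come from the same pool, per the labels' protocols, so a second fit took the pool as a block. Footprint depth was 11.3 to 59.2M coding counts; exact intervals cover counting error only. On simulated footprint counts of 13423 genes with 200 changed, 72.0% were recovered at 1.5-fold and 91.0% at 2-fold, with 5.78% false among calls. The simulated counts had no GC trend, no mutant pools lying further apart and no spread particular to a gene. These rates therefore need not hold for the data.

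All genes called were named, predicted genes excepted, with the falls of smallest p up to 10 in all, Eif3c, Atf4 and 6 Hedgehog genes, and up to 4 members of smallest p per list. The members and lists were chosen with earlier results of these data known, so no test over a list was run.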

Additional observations from a re-analysis of the deposited data

How the results depend on the processing

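The count of 34 genes (30 higher, 4 lower) became 831 with DESeq2 (424 and 407; 17570 genes entered, as without the low-count filter, so tool and filter changed together), 130 under limma-voom (86 and 44), 243 when low counts were kept (138 and 105), 9 with all lane samples summed (7 and 2), 105 with run 2 alone (71 and 34) and 9 with GC offsets and a replicate block together (7 and 2). It was 51 with upper-quartile factors (44 higher, 7 lower), 47 with the whole coding sequence (40 and 7), 42 with the mean over transcripts (35 and 7) and 28 with GC offsets (20 and 8). Leaving out 1 library gave 8 to 2335 genes (6 to 1042 higher and 2 to 1293 lower), the largest without mutant pool 2 and the smallest without wild-type pool 1. The cause of these shifts was not tested; in such fits 1 genotype has 2 pools. The block with the replicate number gave 38 genes (27 higher, 11 lower), 24 of them among the 34. Same-numbered mutant and wild-type pools did not deviate together (r = -0.09, -0.08 and -0.03). With 3 pools per genotype and a wide spread among mutant pools, this cannot decide whether the numbers pair the genotypes. Signs turned for 4 named values, none past the threshold: Atf4 (-0.051, whole coding sequence), Frs2 (0.075, all lane samples), Krt8 (-0.13 with limma-voom, and -0.39 without mutant pool 1, in a range of -0.39 to 1.15 over the libraries left out) and the Hist1h2bp footprint minus RNA difference (0.18 with the pool as a block, without wild-type pool 2). The setting with all lane samples, which turned Frs2, includes the 4 incomplete lane samples of mutant pool 1. Gene list medians moved by more than the spread between replicates in 26 of 740 comparisons. Depth limits genes under 5 CPM, among them 4 of the 34.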
